A study of Mus musculus with 98 samples.

Results

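Ccl25, Cxcl12, Ccl21a and Ccl19, chemokines that draw blood-borne progenitors and maturing thymocytes to and through the mouse thymus, were followed across the sorted and single-cell stromal populations of the series. The members were given as a list of gene symbols, and 4 of the 4 were found in each of the 3 gene tables: 22231 genes of the age series, 20760 genes of the newborn genotype comparison and 39179 gene identifiers of the bulk series. The age series held 8 libraries of live Ter119-CD45-EpCAM- cells from WT (C57BL/6) thymi, with 1 library at E12.5, 1 at E13.5, 2 at E16.5, 2 at P0 and 2 at W4 (4 weeks of age), in which 36208 cells carried one of 19 nonepithelial thymic stroma (NETS) subtype names given by the authors. The newborn comparison held Ter119-CD45- cells of P0 thymi from 3 Tbx1+/-Crkl+/- mice and 3 WT littermates, 21451 cells in 29 subtypes of which 9 are thymic epithelial cells (TEC). The bulk series held 84 WT libraries, 6 for each of 14 groups, in which cTEC, mTEC, CD31+ endothelium, Ly51+gp38- cells (pericytes and vascular smooth muscle), gp38+CD26+ cells (capsular fibroblasts) and gp38+CD26- cells (enriched for medullary fibroblasts) were each taken at P0 and at 4 weeks, and mTEClo and mTEChi at 4 weeks. The Tbx1 allele is a germline LacZ insertion and the Crkl allele a germline null. The mutants thus carried 1 disrupted copy of each gene in all cells and not only in the stroma. The double heterozygotes came from crosses of Tbx1+/- with Crkl+/- mice. The E12.5 and E13.5 libraries were each pooled from 2 litters, and the CD45- and EpCAM- gates leave any chemokine made by blood cells, and in the age series by TEC, outside the measurement except for cells that escaped the sort.

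Chemokines are small secreted proteins that steer cells carrying the matching G protein-coupled receptor. Ccl25 is the ligand of Ccr9 and Cxcl12 the ligand of Cxcr4, both carried by early thymocytes and their progenitors, whereas Ccl21a and Ccl19 share the receptor Ccr7, which guides both early colonising cells and the positively selected thymocytes that move from cortex to medulla. Cortical TEC are the textbook source of Ccl25, medullary TEC that of Ccl21a, and Cxcl12 is made by cortical TEC as well as by vascular and mesenchymal cells in many organs.

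The genes lie on 3 chromosomes of GRCm38 (GENCODE vM21). Ccl25 (ENSMUSG00000023235) occupies chr8:4325210-4360020 on the plus strand with 4 coding transcripts, and Cxcl12 (ENSMUSG00000061353) occupies chr6:117168535-117181367 on the plus strand with 3 coding transcripts. Ccl21a (ENSMUSG00000094686; chr4:42772860-42773993) and Ccl19 (ENSMUSG00000071005; chr4:42754525-42756577) are neighbours on the minus strand, with 16282 bases between them. The promoter windows of these genes, the 250 bases before each RefSeq start site (GRCm38.p6) written 5′ to 3′ on the gene's strand, are shown because the members differ in base composition and because Ccl21a has near-identical copies. The Ccl19 window lies mostly within the GENCODE gene, which reaches 42756577, so its letters are not only those of sequence upstream of the gene. Capitals mark 3 short motifs, on either strand, in 4 of the windows: TATAAA; the CCAAT box, which reads as its reverse complement when it lies on the other strand; and GACGC, the core motif bound by the TEC factor Foxn1. In the Ccl21a window they mark the bases that differ in its copies.
Ccl25 start 1, chr8:4324960-4325209: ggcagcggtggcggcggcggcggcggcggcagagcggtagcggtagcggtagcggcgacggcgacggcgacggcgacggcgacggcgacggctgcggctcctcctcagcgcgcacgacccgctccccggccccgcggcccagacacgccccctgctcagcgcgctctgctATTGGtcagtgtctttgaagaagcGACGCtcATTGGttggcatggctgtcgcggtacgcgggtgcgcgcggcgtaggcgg
Ccl25 start 2, chr8:4349338-4349587: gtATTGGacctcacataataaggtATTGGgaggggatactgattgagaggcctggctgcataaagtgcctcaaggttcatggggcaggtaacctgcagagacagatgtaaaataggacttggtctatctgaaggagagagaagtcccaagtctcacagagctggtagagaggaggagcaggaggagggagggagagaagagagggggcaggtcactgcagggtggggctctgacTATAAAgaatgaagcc
Cxcl12, chr6:117168285-117168534: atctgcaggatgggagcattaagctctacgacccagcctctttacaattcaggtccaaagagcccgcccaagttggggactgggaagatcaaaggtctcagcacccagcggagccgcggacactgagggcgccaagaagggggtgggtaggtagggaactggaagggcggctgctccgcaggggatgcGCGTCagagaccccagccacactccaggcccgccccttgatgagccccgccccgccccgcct
Ccl21a, chr4:42773992-42774241: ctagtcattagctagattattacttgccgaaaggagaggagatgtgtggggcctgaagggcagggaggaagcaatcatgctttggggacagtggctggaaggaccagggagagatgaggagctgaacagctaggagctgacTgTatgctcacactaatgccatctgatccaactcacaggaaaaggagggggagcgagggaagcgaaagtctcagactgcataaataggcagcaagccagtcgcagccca
Ccl19, chr4:42756366-42756615: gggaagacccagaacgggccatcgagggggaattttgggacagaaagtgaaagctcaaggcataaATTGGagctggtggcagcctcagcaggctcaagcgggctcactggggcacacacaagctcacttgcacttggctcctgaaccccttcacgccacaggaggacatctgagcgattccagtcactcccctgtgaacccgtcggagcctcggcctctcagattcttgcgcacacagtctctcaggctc

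GC content ran from 51.6% in the downstream Ccl25 window to 74.8% in the upstream one, with 52.8% in Ccl21a, 58.4% in Ccl19 and 64.4% in Cxcl12. GACGC was found in the upstream Ccl25 window and in the Cxcl12 window, and 22.6% of 32817 mouse promoter windows of the same length hold it on either strand. CCAAT lay in both Ccl25 windows and in the Ccl19 window (33.8% of all windows), and TATAAA only in the downstream Ccl25 window (12.4% of all windows). The NF-kappaB consensus was in none of the 5 windows and in 3.90% of all windows. These matches describe the letters only. The Ccl21a promoter differs from that of Ccl21d by the substitution T142C, counted from 1 at the window's 5′ end, and from those of Gm13304 and Gm10591 by T142C and T144C. The Ccl21a transcript shares 400 of 402 compared bases with Ccl21b, and Ccl19 shares 324 of 324 with Ccl19-ps3, 322 of 324 with Gm12407 and 323 of 327 with Ccl19-ps1, so reads of these copies cannot be assigned with certainty. In the bulk table each Ccl21a copy held at most 3 reads in any library, whereas Gm12407 reached 102 CPM and Ccl19-ps1 41.8 CPM in mTEChi libraries and Ccl19-ps3 at most 32 reads, beside Ccl19 at 335 to 456 CPM there.

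Levels are given as CPM (counts of a gene over 1000000 counts of the library), with bulk values scaled by TMM factors and single-cell values taken as the UMIs of a gene over all UMIs of the cells of a subtype in a library. Adjusted p-values are those of edgeR's quasi-likelihood test with Benjamini-Hochberg adjustment over all genes tested, at a threshold of 0.05, and fold changes are log2 ± SE. Bulk depth was 5785352 to 15852166 counts per library in the 83 libraries that entered the fit. Library 2 of gp38+CD26+ cells at 4 weeks, with 25702 counts, a TEC marker sum of 18442 CPM and fibroblast markers at 1167 CPM, was left out, so that group has n = 5. Single-cell depth was 28583048 to 93040640 UMIs per library in the age series and 4978011 to 31418527 in the newborn comparison. Barcodes shared between libraries were carried by 310 cells of the age series and 88 of the newborn one. Labelled populations carried their defining markers. The summed endothelial markers were 2362 to 6478 CPM in CD31+ cells at both ages, the pericyte markers 30808 to 108436 CPM in Ly51+gp38- cells, the fibroblast markers 15739 to 56365 CPM in the gp38+ populations and the cortical TEC markers 8955 to 22694 CPM in cTEC. In the bulk data a lower level cannot be told apart between fewer cells of a type in the sort and less RNA per cell. The study gives as many newborn mice of each genotype, and as many thymi at E16.5, P0 and W4, as there are single-cell libraries. For the bulk libraries the labels do not say that replicates came from separate animals, so their p-values measure the spread between these libraries, which may be technical. All bulk groups were fitted together, so the SE of a gene draws on its spread in every group and not only in those compared. A bulk difference that was not called can therefore come with ranges that do not overlap.

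Ccl25, the ligand that attracts Ccr9-bearing thymocytes, was a transcript of epithelium and above all of cTEC. In cTEC the 6 P0 libraries ran from 1258 through a median of 1587 to 3051 CPM, and the 4-week libraries from 5495 through 6619 to 8626 CPM. Values in mTEC were 299, 339.9 and 635 CPM (lowest, median and highest) at P0 and 569.7, 608 and 1038 CPM at 4 weeks. All cTEC libraries thus lay above all mTEC libraries of the same age. The cTEC excess was 2.16 ± 0.73 on the log2 scale at P0 (adjusted p = 0.0172) and 3.32 ± 0.76 at 4 weeks (adjusted p = 5.53e-04), while 32.1% and 32.2% of all genes were called between cTEC and mTEC at the 2 ages. Against the 4 nonepithelial populations, TEC were higher by 6.67 ± 0.47 at P0 and by 6.09 ± 0.47 at 4 weeks.

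Within the adult medulla Ccl25 was higher in mTEChi, the mature fraction, than in mTEClo. mTEClo libraries ran from 90.9 through 128 to 153 CPM and mTEChi libraries from 855 through 967 to 1239.5 CPM, so the ranges were far apart. The difference of 3.005 ± 0.75 was called (adjusted p = 0.00315), in a comparison in which 19% of all genes were. With age, 13 of the 24 tests of the members in the 6 populations sampled at both ages were called, beside 9.86% of all tests over all genes. For Ccl25 in cTEC the increase of 1.95 ± 0.72 was not called (adjusted p = 0.0704) although the 2 ages did not overlap. This SE draws on all bulk groups, so the missing call does not show that the cTEC levels were alike. In mTEC the difference of 0.78 ± 0.70 was not called either (adjusted p = 0.732).

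The nonepithelial populations held little Ccl25 at P0, with group means of 2.25 to 19.9 CPM. gp38+CD26+ cells (0.0946 to 4.95 CPM) were lower than gp38+CD26- cells (1.13 to 38.1 CPM) by a difference of -3.06 ± 0.78 (adjusted p = 0.0125) with overlapping ranges, which was not called within either title prefix (adjusted p = 0.345 and 0.0994), and did not overlap with Ly51+gp38- cells. In Ly51+gp38- cells the 6 values rose from 7.22, 18.8 and 40.4 CPM (lowest, median and highest) at P0 to 166, 204 and 978 CPM at 4 weeks, and no 4-week library overlapped with P0. The change was 4.18 ± 0.79 (adjusted p = 1.19e-04), and 3.54 without replicate 3, which held the 978 CPM and without which the 4-week mean was 237 ± 114.9 CPM (SD, n = 5). The cortical TEC markers moved with it, from 4.85 to 73.9 CPM at P0 to 181 to 1051 CPM at 4 weeks, and the pair of libraries highest in Ccl25, replicates 3 and 2, were also the highest in these markers (998 and 1051 CPM). All TEC markers together went from 7.43 to 202 CPM at P0 to 279 to 1266 CPM, beside 20409 to 28373 CPM in 4-week cTEC. The part of TEC RNA in the Ly51+gp38- value was not tested. In gp38+CD26+ cells the called increase of 3.35 ± 0.81 (adjusted p = 0.00287) came with 1 library at 85.98 CPM among values with a median of 8.29 CPM. That library also held cortical TEC markers at 72.5 CPM against at most 3.28 CPM in the others, and without it the change was 1.62 and no longer called.

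**Figure D1:**
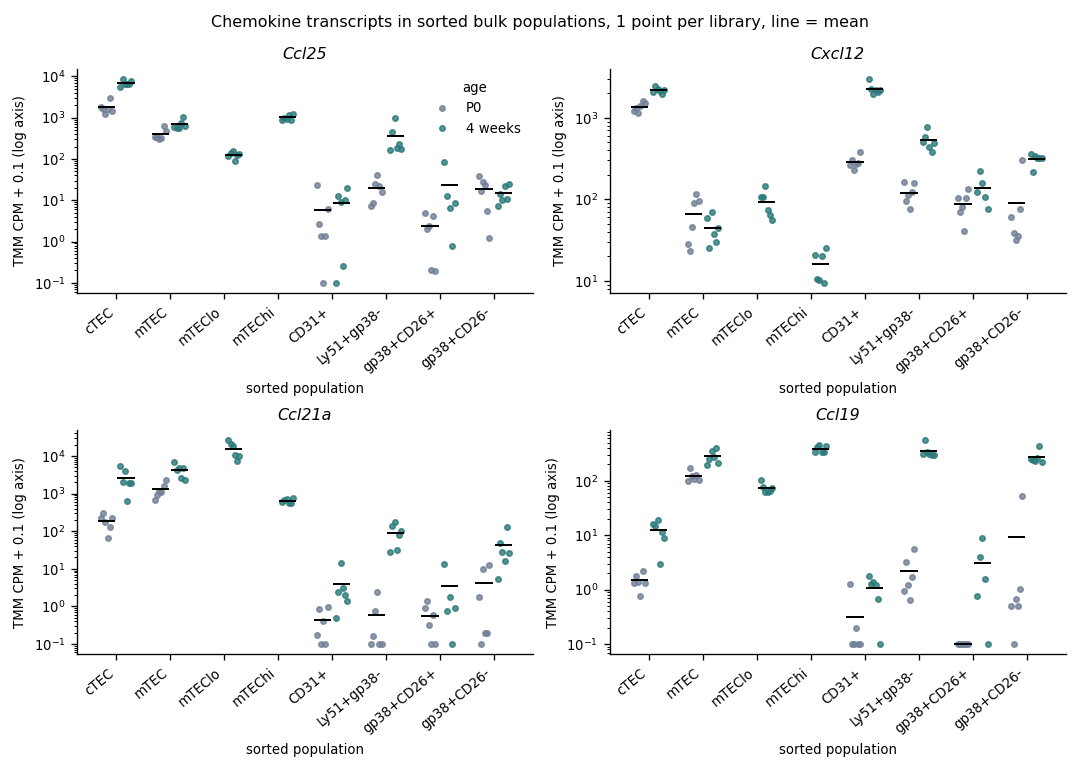
Level of each chemokine in the sorted bulk populations, in TMM-scaled CPM + 0.1 on a log axis. Points are libraries, short lines group means, grey marks P0 and teal 4 weeks. The panels show Ccl25 highest in cTEC, Ccl21a highest in mTEClo at 7389 to 26121 CPM, Cxcl12 shared between cTEC and 4-week CD31+ cells, and Ccl19 at most 5.57 CPM in the nonepithelial libraries at P0, except for 51.9 CPM in gp38+CD26- replicate 6, but at 292 to 554 CPM in 4-week Ly51+gp38- cells.

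At single-cell resolution in the newborn, Ccl25 was higher in mature than in perinatal cortical TEC. In mature cortical TEC (McTEC) it stood at 2693, 3920.1 and 3877 CPM in the 3 WT libraries, and in perinatal cortical TEC (PcTEC) at 1592, 2017 and 2436 CPM. Neural TEC (nTEC) held 1025, 710.3 and 823 CPM, mature medullary TEC (MmTEC) 479, 683 and 906 CPM, and intertypical TEC (ItTEC) 284, 469 and 764 CPM. McTEC lay above PcTEC in every WT library, whereas nTEC, MmTEC and ItTEC overlapped. After each cell was thinned to 2000 UMIs, 93.5% of WT McTEC (95% exact binomial interval 91.5% to 95.2%) and 70.7% of PcTEC (68.6% to 72.8%) held at least 1 Ccl25 UMI. The unthinned share in McTEC was 94.8% at a median of 2819 UMIs per cell.

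Cells that should lack Ccl25 also held some of it. The thymocytes (Thy) that remained in the newborn libraries held a Ccl25 UMI in 43.8% of thinned cells (35.2% to 52.8%; median depth 2510 UMIs), and 505, 794 and 464 CPM in WT, beside TEC markers at 1077, 2292 and 2362 CPM. Over all WT nonepithelial cells of the same libraries Ccl25 was 155.8, 187.1 and 162 CPM and the TEC markers 471, 608 and 489 CPM, so thymocytes carried more TEC RNA than these. Pericytes (Pc) held it in 24.6%, capsular fibroblasts CapFb1b in 23.6% and capillary endothelium (EnC) in 30.9%, all below the thymocyte share, so no expression is read from them. MmTEC, at 38.6%, was also below the thymocyte share. By level MmTEC and ItTEC lay above the nonepithelial cells in 3 of 3 WT libraries and below thymocytes in 2 of 3, while the sorted P0 mTEC libraries held 299 to 635 CPM. The intervals cover counting error only.

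In the EpCAM-negative cells of the age series Ccl25 was low throughout, with 17 of 17 subtypes not called between E16.5 and P0, when 12.6% of all tests were (6.63% higher and 5.99% lower). From P0 to W4 it rose in 4 of 17 subtypes, against 27.6% of all tests called (13.7% higher and 13.9% lower). In pericytes it stood at 25.5 and 18.5 CPM at P0 and at 68.9 and 54.3 CPM at W4 (1.35 ± 0.17, adjusted p = 8e-05). The other 3 subtypes were EnA (arterial endothelium, 1.86), EnC (1.32) and VSM (vascular smooth muscle, 1.36), and each of these 3 calls was lost without at least 1 library. Over whole libraries the cortical TEC markers were 4.07 and 1.69 CPM at P0 and 20.6 and 10.3 CPM at W4, and whether these RNAs carry the Ccl25 difference was not tested.

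Cxcl12, the Cxcr4 ligand, was shared between the cortical epithelium and the vessels. In cTEC it ran from 1158 through 1342 to 1596 CPM at P0 and from 1955 through 2159 to 2472 CPM at 4 weeks. In CD31+ cells it went from 228, 276 and 376 CPM (lowest, median and highest) to 1966, 2186 and 2991 CPM. At P0 all cTEC libraries were above all CD31+ libraries, and at 4 weeks the populations overlapped, CD31+ replicate 1 alone lying above all cTEC libraries. The CD31+ rise of 2.99 ± 0.36 (adjusted p = 3.18e-09) was the largest age effect of Cxcl12 in the 6 populations. The cTEC difference of 0.67 ± 0.34 was not called (adjusted p = 0.218), although the cTEC ranges of the ages did not overlap.

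Ly51+gp38- cells rose as well, from 75.4, 117 and 163.1 CPM (lowest, median and highest) to 386, 495 and 764 CPM, by 2.12 ± 0.35 (adjusted p = 9.21e-06). In gp38+CD26- cells P0 values were 31.6, 49.4 and 301 CPM and 4-week values 217, 323 and 356 CPM, a rise of 1.79 ± 0.35 (adjusted p = 6.96e-05). The P0 value of 301 CPM was that of replicate 6, without which the ranges did not overlap and the rise was 2.66. Capsular gp38+CD26+ cells, at a mean of 88.7 ± 32.1 CPM (SD, n = 6) at P0 and 138 ± 56.1 CPM (SD, n = 5) at 4 weeks, overlapped between the ages and were not called (0.63 ± 0.35, adjusted p = 0.287).

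The endothelial excess over the other nonepithelial populations was 1.53 ± 0.25 at P0 and 3.01 ± 0.25 at 4 weeks (27.5% and 25.1% of all genes called). On the epithelial side the cTEC excess over mTEC, 4.37 ± 0.38 at P0 and 5.62 ± 0.41 at 4 weeks, was the largest of the members in these 2 comparisons. TEC as a whole were above nonepithelial cells by 1.22 ± 0.20 at P0 (adjusted p = 3.85e-07) and below them by a difference of -0.62 ± 0.21 at 4 weeks (adjusted p = 0.0126), where 39.7% and 42.7% of all genes were called and the median of all genes was shifted by 0.37 and 0.48. Within the medulla the order was the opposite of that of Ccl25. mTEClo libraries held 56.2 to 143.6 CPM and mTEChi libraries 9.33 to 25.2 CPM, with no overlap and a difference of -2.53 ± 0.36 (adjusted p = 1.44e-07).

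Capillary endothelium held little Cxcl12 before birth, while arterial endothelium already stood above 1000 CPM at E16.5. In EnC the 8 age-series libraries read 8.99 CPM at E12.5, 38.2 at E13.5, 20.5 and 28.4 at E16.5, 282 and 135.9 at P0, and 3272 and 2887 at W4. The changes from E16.5 to P0 (2.94 ± 0.30, adjusted p = 6.49e-04, and 2.35 without P0 replicate 1) and from P0 to W4 (3.84 ± 0.29, adjusted p = 9.26e-05) were both called. EnA read 99.9 CPM at E12.5, 129.99 at E13.5, 1136 and 1232 at E16.5, 1997 and 1741 at P0, and 2238 and 2280.1 at W4, and its W4 libraries did not differ from P0 by the test (0.18, adjusted p = 0.560). Venous and lymphatic endothelium (EnVL) read 4.16 and 6.38 CPM at E16.5, 64.8 and 22.0 at P0 and 701 and 1229 at W4, with a called rise in the last step (4.39 ± 0.38, adjusted p = 3.1e-05), which was 5.35 without P0 replicate 1. After thinning, 18.4% of EnC and 66.1% of EnA cells at P0 held a Cxcl12 UMI, and at W4 91.4% of EnC, 89% of EnA and 64.6% of EnVL cells.

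Pericytes and medullary fibroblasts had their lowest Cxcl12 values at E16.5 and P0. Pc read 738 CPM at E12.5, 326 at E13.5, 83.7 and 80.2 at E16.5, 215 and 225 at P0, and 859.9 and 773 at W4, and both of the later steps were called (1.24 ± 0.10, adjusted p = 1.59e-05, and 1.70 ± 0.09, adjusted p = 1.33e-07). VSM stayed between 195 and 327 CPM at all ages. Medullary fibroblasts MedFb1b read 603 CPM at E12.5, 284 at E13.5, 44.1 and 44.2 at E16.5, 44.2 and 51.2 at P0, and 255 and 211 at W4, the last step a called rise of 2.24. E12.5 and E13.5 had 1 library each, so their values have no replicate check of their own.

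Of the 7 capsular fibroblast subtypes 4 lost Cxcl12 between P0 and W4 and CapFb1b gained it (1.40 ± 0.10, adjusted p = 3.08e-07). In CapFb2b Cxcl12 stood at 299.8 and 459 CPM at P0 and at 62.6 and 93.5 CPM at W4 (-2.15 ± 0.21, adjusted p = 1.53e-05). CapFb4 went from 138 and 135.2 to 68.6 and 62.4 CPM (-0.98 ± 0.12, adjusted p = 6.55e-07). CapFb3, at 415 and 1048 CPM at P0 and 195 and 269 CPM at W4, and CapFb2a fell too, and both of these calls were lost without single libraries. Across subtypes Cxcl12 rose in 9 and fell in 4 of 17 between P0 and W4 (13.7% and 13.9% of all tests), had risen in 9 of 17 and fallen in 0 between E16.5 and P0 (6.63% and 5.99%), and differed over all ages in 17 of 17, where 55.3% of all tests were called.

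**Figure D2:**
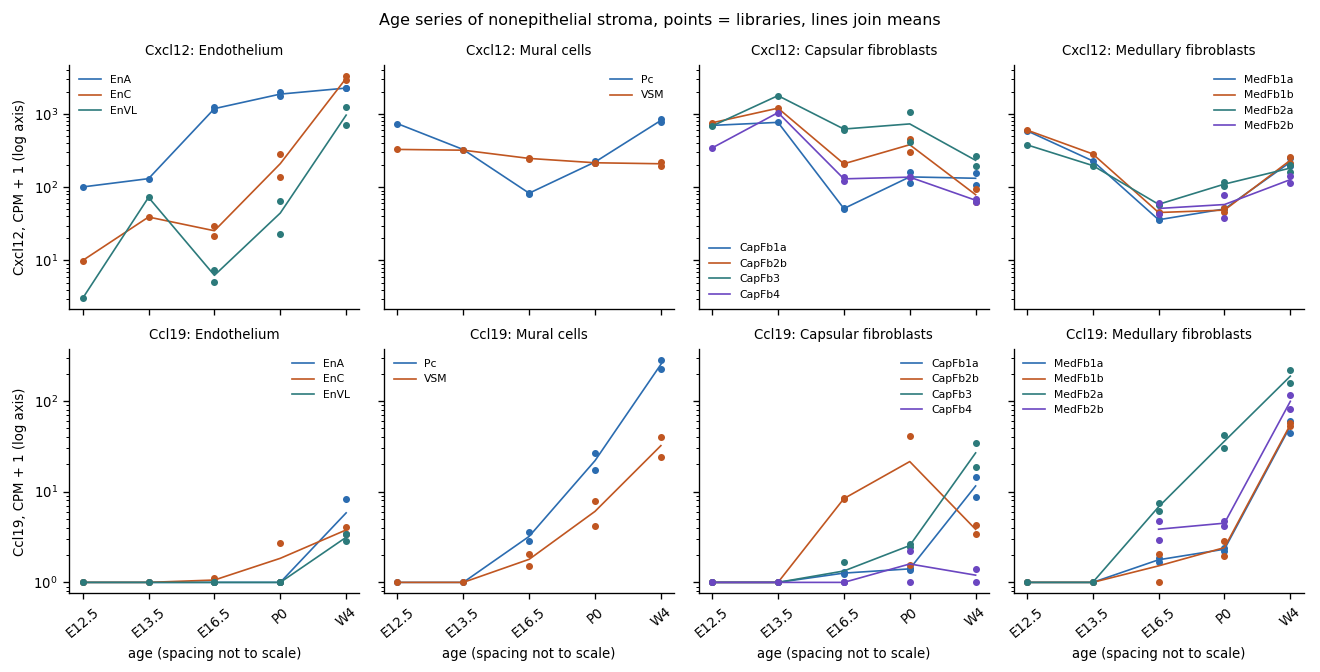
Cxcl12 (upper row) and Ccl19 (lower row) by age in endothelial, mural, capsular and medullary fibroblast subtypes of the age series, in CPM + 1 on a log axis, with 1 point per library. EnC climbs from 8.99 CPM at E12.5 to 3272 and 2887 CPM at W4 in Cxcl12, and Ccl19 leaves 0 after E13.5 and is highest in Pc and MedFb2a at W4.

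In the newborn WT libraries EnA stood highest in Cxcl12 at 4156, 5886 and 5387 CPM, from 19, 11 and 41 cells. McTEC (683, 1038 and 1207 CPM) and PcTEC (667, 936 and 1199 CPM) came next and overlapped with each other. MmTEC, at 72.97, 73.01 and 105 CPM, lay below both thymocytes (280.4, 210.0 and 250.9 CPM) and all nonepithelial cells (208, 177 and 212 CPM), so no expression is read from it. A Cxcl12 UMI was held by 95.1% of thinned EnA cells (86.3% to 99%), 84.4% of McTEC, 79.8% of PcTEC and 29.2% of Thy (21.6% to 37.8%).

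Most newborn WT McTEC and PcTEC held UMIs of both Ccl25 and Cxcl12. Of 710 thinned WT McTEC, 563 (79.3%) held UMIs of both, where the product of the single shares is 78.9%, and of 1904 PcTEC 1112 (58.4%, product 56.4%) did. The joint share was close to that product in both subtypes. In McTEC the single shares are so high that they leave the joint share little room to differ from it.

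Ccl21a, the immobilisable Ccr7 ligand of the medulla, was in the bulk data highest in mTEClo. The 6 mTEClo libraries held 7389, 14656 and 26121 CPM (lowest, median and highest) and the mTEChi libraries 572, 629.8 and 779 CPM, without overlap. The mTEChi level was lower by 4.59 on the log2 scale (-4.59 ± 0.88, adjusted p = 1.13e-04). Per length, the mTEClo mean of Ccl21a was 18924 RPKM, against 88.4 RPKM for Ccl19 and 17.8 RPKM for Ccl25 in the same libraries. The length was the union of a gene's annotated exons, 870 bases for Ccl21a, 867 for Ccl19 and 7445 for Ccl25. It need not be that of the transcript expressed, so these values do not rank the genes by number of transcripts. The mTEClo values split by the title prefix that the labels carry without explanation. DFCK libraries held 18709 to 26121 CPM and TXCK libraries 7389 to 10604 CPM, and Cxcl12 in mTEClo split in the same direction (106 to 143.6 against 56.2 to 73.8 CPM). Other groups parted by prefix too, among them Cxcl12 in P0 mTEC (89.9 to 114.6 CPM in DFCK against 23.1 to 45.2 CPM in TXCK) and Ccl19 in 4-week cTEC (14.5 to 19.2 against 2.91 to 11.5 CPM).

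In mTEC as a whole Ccl21a ran from 675 through 1138 to 2246 CPM at P0 and from 2295 through 4463 to 7031 CPM at 4 weeks, a difference of 1.73 ± 0.78 that was not called (adjusted p = 0.237) although the ages did not overlap. cTEC read 66.8, 198 and 306 CPM (lowest, median and highest) at P0 and 641, 2008 and 5369 CPM at 4 weeks. The cTEC rise of 3.82 ± 0.85 was called (adjusted p = 0.00107). The 4-week cTEC values also parted by prefix (2073 to 5369 CPM in DFCK, 641 to 1944 CPM in TXCK), and the rise was 4.75 and 2.64 within each and not called there (adjusted p = 0.0851 and 0.108). cTEC lay below mTEC at P0 (-2.77 ± 0.81, adjusted p = 0.0061), and at 4 weeks the ranges overlapped and the difference was not called (-0.68 ± 0.76, adjusted p = 0.550). In order of replicate number, 4-week cTEC read 5369, 2073, 4007, 641, 1932 and 1944 CPM, and mTEC 7031, 4296, 4630, 2639, 4713 and 2295 CPM. Each cTEC library thus lay below the mTEC library of the same number. The labels state no pairing, but the library numbers in the titles are spaced alike in every population of an age. Whether libraries of the same replicate number share animals is not stated. No paired bulk fit was run, so the tests between populations treat the libraries as independent. The summed medullary TEC markers in cTEC were 138 to 284 CPM at P0 and 454 to 1005 CPM at 4 weeks, and their part in the cTEC value was not tested. The difference between the age effects of cTEC and mTEC was called for 0 of the 4 members (adjusted p = 0.158 to 0.757, edgeR), as for 2.87% of all genes. Of the 8 differences of age effects taken within the nonepithelial populations, CD31+ minus Ly51+gp38- and gp38+CD26+ minus gp38+CD26-, 3 were called, beside 4.44% and 3.39% of all genes, and none of the 3 was for Ccl21a.

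Outside the epithelium Ccl21a was near 0 at P0 in sorted CD31+, Ly51+gp38- and gp38+CD26+ cells, at no more than 2.36 CPM in any of those libraries. In the age series, given below, EnVL held far more at P0 and fell by W4. Why the sorted CD31+ cells differ from EnVL in level and direction was not tested. At 4 weeks Ly51+gp38- cells held 28.5, 89.1 and 178.9 CPM (lowest, median and highest), a rise of 7.595 ± 1.07 (adjusted p = 2.5e-07). The size of this rise rests on few P0 reads, 26 in replicate 4 and 0 to 7 in the other libraries. The CD31+ change of 3.49 ± 0.98 and the gp38+CD26- change of 3.37 ± 0.85 were also called, at 4-week medians of 2.13 and 27.0 CPM, and the latter was 4.15 without P0 replicate 6. Replicates 3 and 2 were again the highest Ly51+gp38- libraries (178.9 and 134.2 CPM), as for the cortical TEC markers above, while the medullary TEC markers summed to 22.4 CPM at most.

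In newborn WT TEC, ItTEC held 6095, 6814 and 4175 CPM of Ccl21a and proliferating TEC (PrTEC) 3954, 1728 and 1512 CPM. The cortical subtypes and MmTEC were lower, with McTEC at 661, 717 and 542 CPM and MmTEC at 193, 646 and 546 CPM. ItTEC lay above all other subtypes in every WT library. A Ccl21a UMI was found in 59.5% of thinned WT ItTEC (54.9% to 63.9%), 29.2% of MmTEC, 28.8% of PrTEC (23.1% to 35%) and 21.4% of McTEC, beside 16.2% of Thy (10.3% to 23.6%). The McTEC share lies within that interval, while its level is above the 44.9, 82.2 and 88.6 CPM of WT Thy. In the 3 WT libraries 6 of 98, 17 of 272 and 20 of 585 McTEC held 10 or more unthinned UMIs. Of the Thy 0 of 39, 0 of 78 and 1 of 91 did. Median depths were 2481, 2833.5 and 2893 UMIs in McTEC and 1749, 2510 and 3054 in Thy. In PrTEC 42.2% of the cells without a Cxcl12 UMI and 18.7% of those with one held a Ccl21a UMI, whereas Ccl25 and Ccl21a met in 26.7% of ItTEC, near the product of 28.6%.

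In the age series EnVL was the nonepithelial subtype with the highest Ccl21a at E13.5 and at P0. Its libraries read 0 CPM at E12.5, 1265 at E13.5, 0.520 and 10.1 at E16.5, 1227 and 603 at P0, and 7.49 and 2.41 at W4. Both steps around P0 were called (7.22 ± 0.57, adjusted p = 3.53e-05, and -7.46 ± 0.64, adjusted p = 2.72e-05). With 1 library left out they ranged from 6.44 to 10.45, the highest without E16.5 replicate 2, and from -8.53 to -6.91, the largest fall without W4 replicate 1, and both remained called. When EnVL cells were divided by whether they held at least 2 of the lymphatic markers Prox1, Lyve1, Flt4, Pdpn and Reln (in the newborn data Mmrn1 was counted too, which was not used in the age series), the E13.5 library had 23 such cells of 97, which carried 1657 of its 1658 Ccl21a UMIs. At P0 22 of 95 and 12 of 83 cells were marker-positive and carried 99.9% and 100% of the UMIs, at 4868 and 2755 CPM against 2.37 and 0 CPM in the other EnVL cells.

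At W4 1 of 100 and 1 of 97 EnVL cells met the 2-marker rule, and at E16.5 5 cells of one library and 9 of the other, of which 1 held all 27 UMIs of its library. The P0 level of replicate 2 rested on 2 cells and that of replicate 1 on 11. The W4 drop in EnVL therefore covers both fewer lymphatic cells in the subtype and less transcript, which cannot be told apart. E12.5 had 0 UMIs although 8 of 31 cells were marker-positive, a share near that of E13.5. In the newborn comparison EnVL read 283, 89.3 and 171 CPM in WT and 49.97, 86.3 and 68.2 CPM in Tbx1+/-Crkl+/- libraries. Thymocytes read 44.9, 82.2 and 88.6 CPM in WT and 69.6, 136.6 and 73.6 CPM in mutants, each of the latter above the EnVL of its library. The genotype difference in EnVL was not called by edgeR (-1.36, adjusted p = 0.496, unadjusted p = 0.00106).

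**Figure D3:**
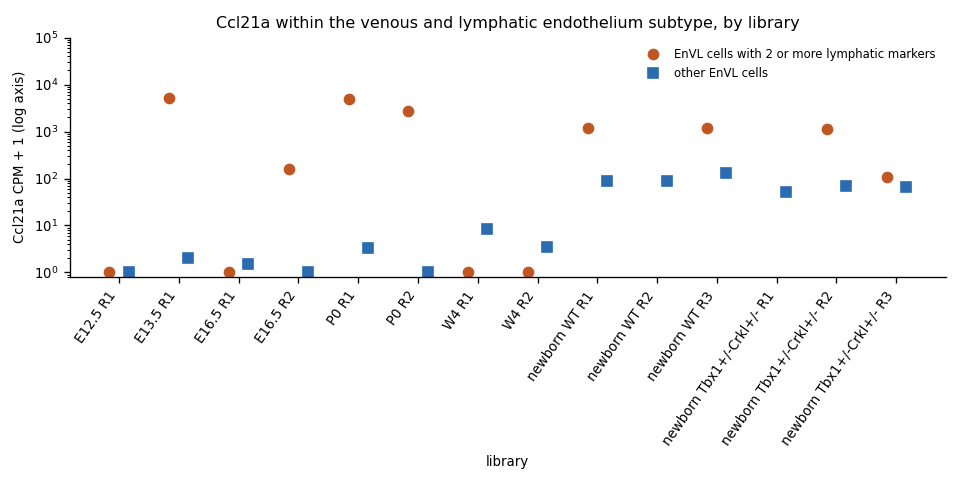
Ccl21a in venous and lymphatic endothelium (EnVL) of each age-series and newborn library, in CPM + 1 on a log axis, for cells with at least 2 lymphatic markers, of 5 in the age series and 6 in the newborn data (orange circles), and for the other EnVL cells (blue squares). In the age series the orange points of E13.5 and P0 lie at 2755 to 5076 CPM and the blue points do not exceed 7.55 CPM, whereas the blue points of the newborn libraries lie near the thymocyte level.

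Elsewhere in the age series Ccl21a was under 30 CPM. It rose between P0 and W4 in Pc (3.59 ± 0.32, adjusted p = 4.96e-06) to 28.7 and 27.7 CPM, in MedFb2a by 3.099 (2.18 without W4 replicate 2, 2.39 without P0 replicate 2 and 3.74 without P0 replicate 1, still called), and in EnC and VSM, where each call was lost without at least 1 library. The medullary TEC markers in these Pc cells summed to 6.89 CPM at W4 and 0.604 CPM at P0.

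Ccl19 is the soluble Ccr7 ligand, and its mean level in the bulk libraries was highest in mTEC at birth, and highest in mTEChi, Ly51+gp38- cells, mTEC and gp38+CD26- cells in the adult. In mTEC it ran from 99.9 through 114 to 174 CPM at P0 and from 197 through 264 to 395 CPM at 4 weeks, which did not overlap, yet the difference of 1.21 ± 0.72 was not called (adjusted p = 0.465). mTEChi libraries held 335, 382 and 456 CPM (lowest, median and highest) and mTEClo libraries 61.4, 68.2 and 101.2 CPM, a difference of 2.41 ± 0.75 (adjusted p = 0.0183). Ccl19 and Ccl21a, which bind the same receptor, thus had opposite orders between mTEChi and mTEClo. cTEC held little Ccl19, 0.680 to 2.14 CPM at P0 and 2.91 to 19.2 CPM at 4 weeks, and lay below mTEC at both ages (-6.45 ± 0.92 and -4.53 ± 0.83).

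In Ly51+gp38- cells Ccl19 went from 0.545, 1.37 and 5.57 CPM (lowest, median and highest) at P0 to 292, 309.7 and 554 CPM at 4 weeks, a rise of 7.34 ± 0.95 (adjusted p = 4.02e-08). In gp38+CD26- cells 5 of the 6 P0 libraries held at most 0.925 CPM and replicate 6 held 51.9 CPM, whereas the 4-week libraries held 220.4, 249 and 428 CPM. Their rise was 4.92 ± 0.85 (adjusted p = 9.85e-06), and 9.17 without replicate 6. Every 4-week library of both populations lay above every P0 library. Replicate 6 was also the P0 library lowest in TEC markers (10.4 CPM against 81.7 to 288) and highest in Cxcl12.

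The adult mesenchymal level was of the same order as that of the medullary epithelium. Per length, Ccl19 averaged 384 RPKM in 4-week Ly51+gp38- cells, 278 in gp38+CD26- cells, 396 in mTEChi and 315 in mTEC. The medullary TEC markers summed to 0 to 22.4 CPM in the 4-week Ly51+gp38- libraries and 3.02 to 9.06 CPM in gp38+CD26- cells, against 1288 to 2043 CPM in mTEC. All TEC markers together and the hematopoietic markers were higher at 4 weeks than at P0 in Ly51+gp38- cells. Their part in the Ccl19 level was not tested. Capsular gp38+CD26+ cells had 0 reads of Ccl19 in all 6 P0 libraries and 0, 1.495 and 8.68 CPM (lowest, median and highest) at 4 weeks. Their change was called (adjusted p = 1.16e-04), with overlapping groups. CD31+ cells stayed at or below 1.70 CPM. Between gp38+CD26+ and gp38+CD26- cells at 4 weeks the difference was -6.53 ± 0.997 (adjusted p = 2.35e-06), where 6.03% of all genes were called.

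The age series gave the time of this change by subtype. Ccl19 had 0 UMIs in all NETS subtypes at E12.5 and E13.5. In Pc it read 1.83 and 2.60 CPM at E16.5, 25.8 and 16.1 at P0, and 279 and 225 at W4, with both steps called (2.97 ± 0.28, adjusted p = 5.34e-05, and 3.47 ± 0.17, adjusted p = 4.97e-08). In MedFb2a it read 6.56 and 5.05 CPM, then 41.2 and 28.9, then 218 and 154.7 (2.39 ± 0.26, adjusted p = 3.89e-05, and 2.46 ± 0.17, adjusted p = 9.18e-08). The levels of Pc and MedFb2a were the highest of the subtypes at W4. Over whole libraries the hematopoietic markers were 20.6 and 24.3 CPM at E16.5, 52.8 and 25.6 at P0, and 142 and 73.4 at W4. The medullary TEC markers were 0.770 and 1.27, 6.03 and 1.42, and 7.17 and 6.33 CPM at these ages. The part of these RNAs in the Ccl19 change was not tested.

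Other medullary fibroblasts were later. MedFb2b held 3.797 and 3.19 CPM at P0, from 3 and 4 UMIs, and 114.6 and 81.5 CPM at W4 (4.76 ± 0.37), MedFb1a 1.42 and 1.22 and then 43.7 and 59.8 CPM (5.18 ± 0.43), and MedFb1b 1.88 and 0.957 and then 55.6 and 52.0 CPM (5.27 ± 0.30). Of the capsular fibroblasts CapFb1a, CapFb1b, CapFb1c, CapFb2a and CapFb3 also rose, from 0.194 to 2.98 CPM at P0 to 7.73 to 33.7 CPM at W4, by 3.06 (CapFb1c) to 5.62 (CapFb1b, and 4.79 to 6.30 with 1 library left out). EnC at 3.12 and 2.45 CPM and CapFb4 at 0 and 0.402 CPM were near 0 at W4. In all, Ccl19 rose in 4 of 13 subtypes between E16.5 and P0 (6.63% of all tests rose) and in 11 of 13 between P0 and W4 (13.7%), and CapFb2b and the proliferating cells (Pr) were the 2 that did not pass. The P0 value of CapFb2b in replicate 2, 40.4 CPM against 0.563 CPM in replicate 1, rested on few cells, since 99.1% of the 109 UMIs lay in 10 cells.

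At W4 the transcript was uneven from cell to cell. Of 598 MedFb2a cells 334 held a Ccl19 UMI and 33 held 10 or more, and of 776 Pc 162 held one and 27 held 10 or more. The 10 highest cells carried 25.4% of the UMIs in MedFb2a and 32.96% in Pc. At 2000 UMIs per cell the shares were 22.9% (19.6% to 26.5%) in MedFb2a, 12.2% (9.99% to 14.7%) in Pc and 10.1% in MedFb2b, beside 0.803% in EnC and 0.431% in CapFb4. Cells of MedFb2a with both Cxcl12 and Ccl19 made up 7.20%, where the product of the shares is 6.34%, and in Pc 7.93% (product 8.97%).

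In the newborn TEC Ccl19 was led by MmTEC at 119.9, 333 and 312 CPM in WT, with ItTEC at 50.4, 41.9 and 28.98 and PrTEC at 46.3, 37.7 and 29.2 CPM. McTEC held 7.35, 8.35 and 6.10 CPM. A UMI was present in 27.5% of thinned MmTEC (21.8% to 33.7%), 5.93% of PrTEC and 4.62% of ItTEC. No thinned Thy cell held one, which allows a share of up to 2.8% of thinned cells, while the unthinned Thy of WT replicate 2 held 9.13 CPM, near the McTEC level. MmTEC with both Ccl21a and Ccl19 were 21 of 233 (9.01%), near the product of 8.02%.

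**Figure D4:**
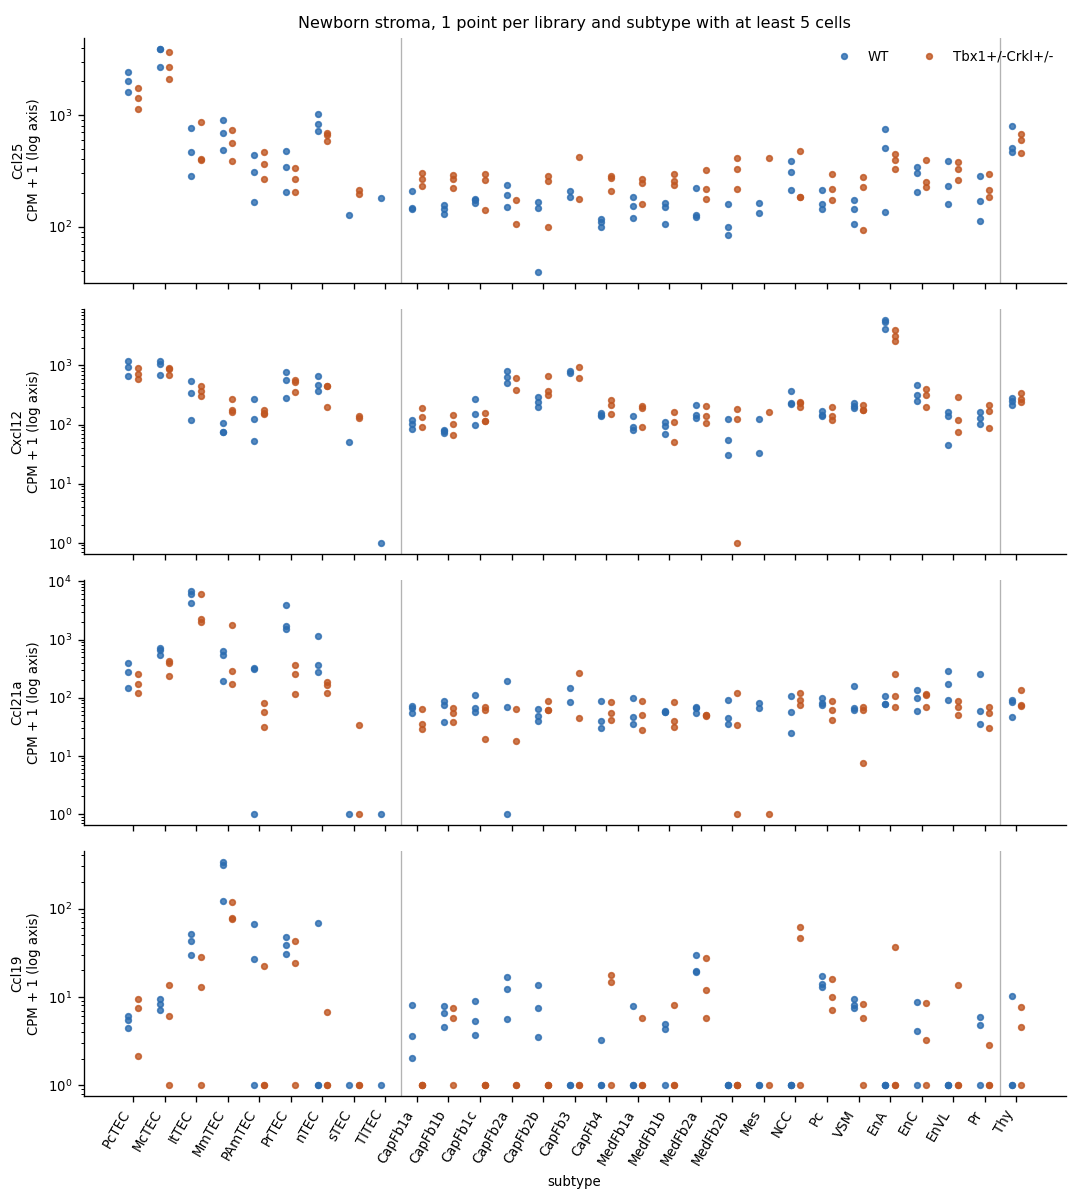
Level of each chemokine by subtype in the newborn libraries, in CPM + 1 on a log axis, with WT libraries in blue and Tbx1+/-Crkl+/- libraries in orange, for subtypes with at least 5 cells in a library. Vertical lines separate TEC, NETS and thymocytes (Thy). Ccl25 leads in McTEC, Cxcl12 in EnA, Ccl21a in ItTEC and Ccl19 in MmTEC, and the colours part most in PrTEC for Ccl21a.

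Reduced dosage of Tbx1 and Crkl, genes of pharyngeal development whose loss leaves a small thymus, was compared in each newborn subtype for which the libraries had 20 cells or more. Of 57 tests of the members 1 was called, beside 0.0481% of all tests. In PrTEC Ccl21a stood at 3954, 1728 and 1512 CPM in WT and at 358, 255 and 117 CPM in Tbx1+/-Crkl+/- libraries, so that every mutant library was below every WT library. The difference was -3.31 ± 0.38 (adjusted p = 3.87e-05), and 0.162% of the genes tested in PrTEC were called.

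The PrTEC value rested on a minority of cells. Of 276 WT PrTEC 5, 13 and 17 in the 3 libraries held 10 or more Ccl21a UMIs, and of 211 mutant PrTEC 1, 4 and 0 did. The highest single cells held 311, 129 and 295 UMIs in WT and 34, 26 and 5 in mutants. These counts are unthinned, at median depths of 2808, 4243 and 4815 UMIs in WT and 2562, 2952.5 and 2956 in mutants. A Ccl21a UMI was held by 28.8% of thinned WT and 13.46% of thinned mutant PrTEC (8.53% to 19.8%). The mutant share is near that of WT thymocytes, while the mutant levels are above the WT thymocyte levels given before. Thymocytes of the mutant libraries held 69.6, 136.6 and 73.6 CPM, each below the PrTEC of the same library. The 10 highest cells carried 59.8% of the WT and 74.1% of the mutant UMIs. The medullary TEC markers summed to 1289, 1338 and 834 CPM in WT PrTEC and to 723, 661 and 854 CPM in mutants, and the hematopoietic markers to 6.61, 10.5 and 14.6 and to 31.1, 102.8 and 11.7 CPM. All TEC markers together summed to 4906, 6372 and 7289 CPM in WT PrTEC and to 4829, 4617 and 2830 CPM in mutants. The part of these markers in the difference was not tested.

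In ItTEC, the subtype with most Ccl21a, the mutant libraries read 6037, 1985 and 2258 CPM against 6095, 6814 and 4175 CPM in WT. The groups overlapped through mutant replicate 1, and the difference of -0.72 ± 0.46 was not called (adjusted p = 1). Without that library it was -1.34 and still not called (adjusted p = 0.688). McTEC fell outside the threshold as well (435, 392 and 239 CPM in mutants, -0.85, adjusted p = 0.828), though its groups did not overlap. Summed over TEC subtypes the level was 1062, 1107 and 802 CPM in WT and 624, 397 and 273 CPM in mutants, beside medullary TEC markers at 686, 697 and 501 CPM in WT and 452, 428 and 441 CPM in mutants. The class-level difference in TEC was -1.22 ± 0.32 and not called (adjusted p = 0.689), and with subtypes summed into classes 0 of 15 member tests were called by edgeR (4 at an unadjusted p under 0.05). Of the 16 subtypes tested for Ccl21a, 4 lay higher and 12 lower in mutants by value, and 5, PrTEC among them, had an unadjusted p under 0.05 by edgeR.

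For Ccl25 0 of 18 subtypes were called by edgeR (7 at an unadjusted p under 0.05). The lowest adjusted p was that of CapFb4 (1.29 ± 0.32, adjusted p = 0.0668), where WT libraries read 115.2, 99.1 and 108.3 CPM and mutants 205, 273 and 285 CPM, without overlap. This difference was called without WT replicate 1 (1.31, adjusted p = 0.0222) and without mutant replicate 1 (1.39, adjusted p = 0.0480). Over all nonepithelial cells Ccl25 was 155.8, 187.1 and 162 CPM in WT and 197, 305 and 236 CPM in mutants, while TEC markers in the same cells summed to 471, 608 and 489 and to 621, 1227 and 796 CPM, and the share of TEC among all cells was 28.0%, 43.7% and 41.7% in WT and 48.1%, 48.3% and 39.9% in mutants. The part of TEC RNA in these values was not tested. In the cortical TEC that make it, Ccl25 differed by -0.55 ± 0.30 in PcTEC (adjusted p = 0.644) and by -0.32 ± 0.40 in McTEC (adjusted p = 0.885), both with overlapping groups. Cxcl12 was called in 0 of 18 subtypes by edgeR (2 at an unadjusted p under 0.05; log2 differences from -0.40 to 1.11) and Ccl19 in 0 of 5 (1 at an unadjusted p under 0.05). For Ccl19 that was MmTEC, with WT at 119.9, 333 and 312 CPM and mutants at 74.4, 118 and 77.0 CPM (-1.57 ± 0.39, adjusted p = 0.185). Without WT replicate 1, the lowest of the WT libraries, it was called (-1.94, adjusted p = 0.0142).

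**Figure D5:**
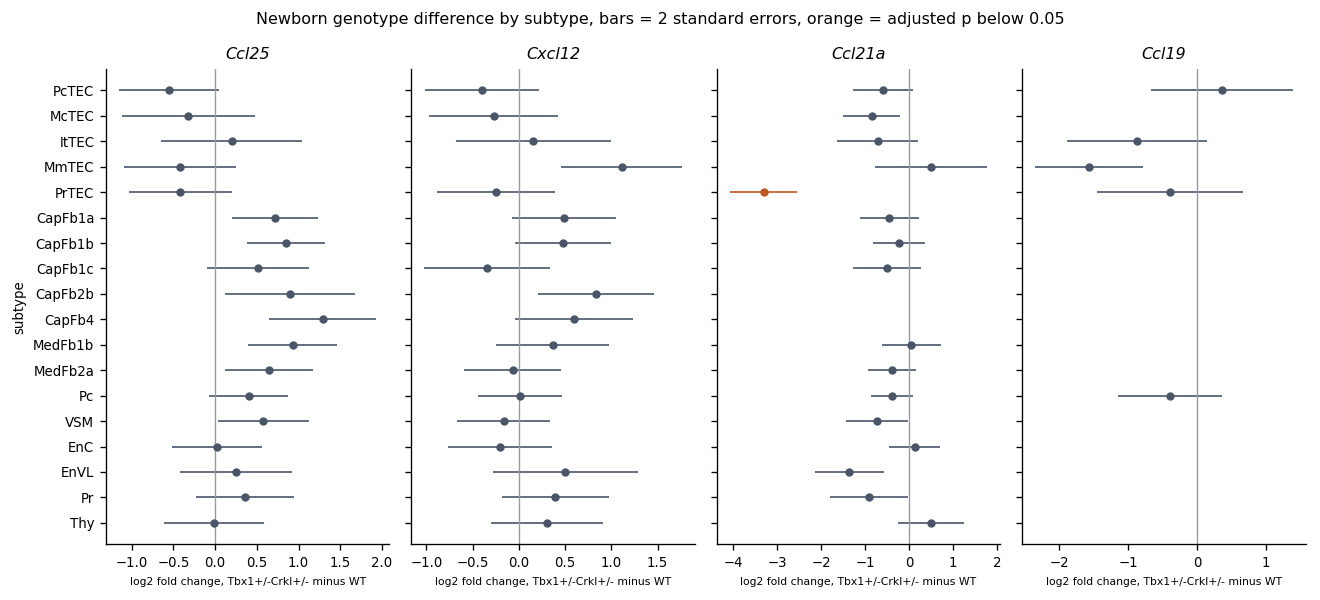
Log2 difference of Tbx1+/-Crkl+/- minus WT ± 2 SE for each chemokine in each newborn subtype tested. Orange marks an adjusted p below 0.05. The single orange point is Ccl21a in PrTEC at -3.31, and the Ccl25 points of nonepithelial subtypes lie mostly to the right of 0, up to 1.29.

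Genes of the same system were read from 4 fixed lists. Of the 8 receptors and scavengers, Ackr4, a decoy receptor that removes Ccl25, Ccl21 and Ccl19, was higher in cTEC than in mTEC by 4.39 at P0 and by 6.20 ± 1.23 at 4 weeks (adjusted p = 8.5e-05). It was higher in TEC than in nonepithelial cells by 6.20 and 3.96 at the 2 ages, and it rose by 6.38 in Ly51+gp38- cells. Ackr3, a scavenger of Cxcl12, was higher in gp38+CD26+ than in gp38+CD26- cells by 4.37 at P0 and 6.73 at 4 weeks. Ackr1, which venous endothelium displays, was higher in CD31+ cells by 10.10 and 8.43. The signalling receptors Ccr7, Ccr9 and Cxcr4 rose in cTEC with age by 8.64, 5.46 and 5.56, together with hematopoietic markers (26.5 to 56.99 CPM at P0, 524 to 2270 CPM at 4 weeks). Ackr1 and Ackr3 also rose there, which made 5 of 8. Of the same list 3 of 8 (Ackr4, Ccr7 and Ccr9) rose in Ly51+gp38- cells, where 6.31% of all genes did and where TEC and hematopoietic markers were higher at 4 weeks, and 0 were called by edgeR in gp38+CD26- cells or mTEC (3 and 0 at an unadjusted p under 0.05), where 8.63% and 2.47% of all genes rose. In gp38+CD26+ cells Ackr1 and Ackr3 rose by 4.81 and 3.53, and in CD31+ cells Ccrl2 rose by 2.32 and Ccr9 fell by 5.52 on the log2 scale, where 9.57% and 10.5% of all genes were called. In cTEC 7.92% of all genes rose.

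The 9 stromal regulators include Foxn1, the transcription factor of TEC identity, and the noncanonical NF-kappaB components Relb, Nfkb2 and Map3k14. At P0 7 of them were higher in TEC than in nonepithelial cells (Foxn1 by 9.30, Cd40 by 3.75, Relb by 2.39). At 4 weeks 4 were (Foxn1, Cd40, Relb and Tnfrsf11a), where 6086 of 20417 genes were higher and 2642 lower. In either direction 39.7% of all genes were called at P0 and 42.7% at 4 weeks. Ltbr and Tnfrsf1a were lower in TEC at P0 (-1.58 and -2.04) and at 4 weeks (-1.26 and -1.72). With age Nfkb2 and Relb rose in CD31+ cells by 1.25 and 1.34, and in Ly51+gp38- cells Nfkb2 rose by 0.93, Foxn1 by 3.11 and Tnfrsf11a by 5.63, beside the TEC markers that went from 7.43 to 202 CPM to 279 to 1266 CPM in the same libraries. Tnfrsf1a fell in gp38+CD26+ cells (-1.24). In cTEC, gp38+CD26- cells and mTEC 0 of the 9 were called by edgeR (1, 1 and 0 at an unadjusted p under 0.05). Over all genes and these 6 populations 9.86% of tests were called. At 4 weeks Nfkb2 and Relb were lower in gp38+CD26+ than in gp38+CD26- cells (-1.58 and -1.52).

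Of the 7 genes of progenitor entry and niche, the adhesion molecule Vcam1 rose with age in CD31+ (1.74), Ly51+gp38- (1.26) and gp38+CD26- cells (0.84) and fell in gp38+CD26+ cells (-1.01). Kitl, the stem cell factor, moved with it in 3 of these populations (0.82, 1.01 and -0.98), CD31+ cells being without a call. Selp, the selectin of entry vessels, was higher in CD31+ than in other nonepithelial cells by 7.86 and 11.25. With age 1 of the 7 was called in CD31+, 4 in Ly51+gp38- and 2 in gp38+CD26+ cells, where 10.5%, 11.6% and 9.57% of all genes were, and 3 rose in gp38+CD26- cells, where 8.63% did. In cTEC and mTEC 0 of the 7 were called by edgeR (1 and 0 at an unadjusted p under 0.05), where 10.2% and 3.91% of all genes were.

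Of the 32 other chemokine ligands, 23 were called lower and 0 higher in cTEC than in mTEC at P0, with a list median of -5.72 against -0.44 over all genes, of which 32.1% were called, and at 4 weeks 26 were lower and 1, Cx3cl1, higher (median -4.95 against -0.33, 32.2% of all genes called). In mTEChi against mTEClo 14 were higher and 1 lower (median 2.24 against 0.26, 19% of all genes called). Ccl19 and Ccl25 had the direction of most of that list between mTEChi and mTEClo, and Cxcl12 and Ccl21a the opposite one. With age 6 of the 32 rose in CD31+, 6 in Ly51+gp38-, 7 in cTEC, 7 in gp38+CD26+, 8 in gp38+CD26- cells and 3 in mTEC, where 4.72%, 6.31%, 7.92%, 6.26%, 8.63% and 2.47% of all genes rose. In either direction 6, 6, 8, 10, 10 and 3 were called in the same order, beside 9.86% of all tests over these populations. In the newborn genotype comparison 0 genes of the 4 lists were called by edgeR.

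The genes whose levels followed each member most closely were named as a description, by Pearson's r over 83 bulk libraries (20417 genes) and over 29 newborn subtypes (15484 genes). For Ccl25 Tbata led in both (0.96 and 0.94), with Crip3 (0.94 and 0.91). For Ccl21a the bulk leaders were Krt5 and H2-Ab1 (both 0.92) and Epcam (0.91), and in the newborn subtypes Dusp22 (0.86). Ccl19 was followed in bulk by its near copy Gm12407 (0.93) and by Ctsc (0.86) and in the newborn subtypes by CR974586.5 (0.88). Cxcl12 was followed by Castor1 (0.78) in bulk and by Knop1 (0.85) in the newborn subtypes. Among the members r was 0.79 in bulk and 0.52 over the newborn subtypes between Ccl25 and Ccl21a, and 0.69 and 0.55 between Ccl21a and Ccl19. Its sign differed between the data sets for Cxcl12 with Ccl19 (-0.31 and 0.15) and with Ccl21a (-0.12 and 0.58). The points share sorts, depth and title prefix.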

How the data were processed

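The authors aligned single-cell libraries with Cell Ranger 3.1.0 and state a filter of over 1000 genes and under 5% mitochondrial UMIs per cell, though the lowest number of genes per cell in the deposited tables is 876 to 901 in the newborn libraries and 999 in 1 W4 library. Both single-cell tables are deposited counts of UMIs with the authors' subtype names, which were used unchanged, and doublets had been removed by the authors. The bulk table holds deposited gene counts made by the authors with STAR 2.5.3a and HTSeq. Per the labels' processing notes mm10 and GRCh38 are named as builds. Entries that name no gene (98, with 7.81% to 29.4% of reads per library) were left out of the bulk data. Of its gene identifiers 37607 of 39179 had a symbol. Reads aligned to several places were 2.86% to 14.6% and were not counted to genes.

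UMIs were summed by library and subtype (5 cells at least for a level, 20 for a test). Bulk libraries needed 1000000 counts. Counts were tested by edgeR 4.0.16 (TMM, filterByExpr, quasi-likelihood) under R 4.3.3, 1 fit for all bulk groups and 1 per subtype otherwise. The self-test used simulated counts. DESeq2 1.42.0, no TMM scaling, no filter, each title prefix alone, prefix as covariate, a replicate block, thinning to 1000 UMIs and 3 lymphatic markers were alternatives. So was a bulk fit on the groups compared alone. Libraries left out in turn were each newborn library, each age-series library of E16.5, P0 and W4, and each 4-week gp38+CD26+ bulk library in the fit. Leaving out 2 doubted bulk libraries was added after the data were seen. Genes were named by a rule: the members, and for each the 5 genes with the highest r per data set, a part of which is printed, 1 being not reported here. The members and lists were chosen with earlier results of these data known. Sequences are RefSeq's.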

Additional observations from a re-analysis of the deposited data

Results flagged for a closer look

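In bulk groups of 5 or 6 libraries, 18 of 55 sets of 1 gene in 1 group held a library whose gap to its nearest neighbour was past Dixon's 95% critical value, where chance gives about 1 in 20. Values are TMM-scaled CPM beside the group median. For Ccl25 these were CD31+ at P0 replicate 1 (22.9 beside 1.96), Ly51+gp38- at 4 weeks replicate 3 (978 beside 204), gp38+CD26+ at 4 weeks replicate 1 (85.98 beside 8.29), cTEC at P0 replicate 5 (3051 beside 1587) and mTEC at 4 weeks replicate 5 (1038 beside 608). For Cxcl12 they were CD31+ at 4 weeks replicate 1 (2991 beside 2186), gp38+CD26- at P0 replicate 6 (301 beside 49.4) and gp38+CD26- at 4 weeks replicate 2, which was low (217 beside 323).

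For Ccl21a they were CD31+ at 4 weeks replicate 3 (14.6 beside 2.13), Ly51+gp38- at P0 replicate 4 (2.36 beside 0.0302), gp38+CD26+ at 4 weeks replicate 1 (13.3 beside 0.799) and gp38+CD26- at 4 weeks replicate 5 (130.04 beside 27.0). For Ccl19 they were CD31+ at P0 replicate 1 (1.17 beside 0), Ly51+gp38- at 4 weeks replicate 2 (554 beside 309.7), gp38+CD26- at P0 replicate 6 (51.9 beside 0.491), gp38+CD26- at 4 weeks replicate 5 (428 beside 249), mTEC at P0 replicate 2 (174 beside 114) and mTEClo replicate 1 (101.2 beside 68.2). Replicate 1 of gp38+CD26+ cells at 4 weeks thus stood apart in both Ccl25 and Ccl21a, and replicate 6 of gp38+CD26- cells at P0 in both Cxcl12 and Ccl19.

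Age effects differed between populations in 3 of 12 tests of the difference itself. For Ccl19 the CD31+ effect was smaller than that of Ly51+gp38- cells by a difference of -5.19 ± 1.37 (adjusted p = 0.0148, edgeR). For Ccl25 the same difference was -3.58 ± 1.03 (adjusted p = 0.0273, edgeR), which became -2.90 and was no longer called without Ly51+gp38- replicate 3. The Ccl25 age effect of gp38+CD26+ cells exceeded that of gp38+CD26- cells by 3.68 ± 1.06 (adjusted p = 0.0343, edgeR), which became 2.002 and lost its call without gp38+CD26+ replicate 1.

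The library left out of the fits, replicate 2 of gp38+CD26+ cells at 4 weeks with 25702 counts, held 11750 CPM of Ccl25 (302 counts), 1945 CPM of Cxcl12 (50 counts), 5019 CPM of Ccl21a (129 counts) and 194.5 CPM of Ccl19 (5 counts). The highest of the other 5 libraries held 77.0, 186.6, 11.9 and 7.44 CPM on the same unscaled basis.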

How the results depend on the processing

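Percentages below are shares of the member tests called. With DFCK libraries alone the bulk age comparisons gave 29.2% (54.2% with both prefixes) and the differences of age effects 0%, and with TXCK libraries alone the latter gave 16.7% (25% with both). Leaving out 1 gp38+CD26+ library at 4 weeks gave 25% to 75% for its age comparison (50% with all), 0% to 25% for its difference of age effects and 87.5% to 93.75% for its population comparisons. Without Ly51+gp38- replicate 3 the differences of age effects that use it gave 25%, and without gp38+CD26- P0 replicate 6 those that use it gave 50%. In the newborn comparison no filter on low counts gave 2.78% (1.75% with it), classes summed over subtypes 0%, and leaving out 1 library 1.67% to 5.08%, with 5.08% without WT replicate 1 and 3.33% without Tbx1+/-Crkl+/- replicate 1. At 1000 UMIs per cell the shares were 83.9% for Ccl25 in WT McTEC, 87.3% for Cxcl12 in WT EnA, 81.8% for Cxcl12 in W4 EnC, and 9.79% and 12.9% for Ccl19 in W4 Pc and MedFb2a. A mean over cells gave 3359 CPM of Cxcl12 in W4 EnC and 179.5 CPM of Ccl19 in W4 Pc (3079 and 252 CPM from sums). With 3 lymphatic markers the E13.5 share of Ccl21a UMIs was 99.2% (99.9% with 2). With all 84 libraries 2 differences of Ccl21a at 4 weeks reversed, Ly51+gp38- minus gp38+ cells to -0.25 and gp38+CD26+ minus gp38+CD26- to 2.83. The causes were not tested. Same-numbered single-cell libraries did not deviate together (r from -0.206 to 0.0402), and with the replicate block 92 of 95 age calls kept their side of the threshold and 3 did not, and the 1 newborn call kept its own. Without TMM the median of all genes moved from -0.44 to -0.18 for cTEC minus mTEC at P0 and from 0.26 to 0.02 for mTEChi minus mTEClo. With DESeq2 50 of 50 bulk calls kept their side, and 80 of 94 in the age series. When the bulk groups of a comparison were fitted alone, 40 calls kept their side and 7 did not.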
